A study of Caenorhabditis elegans with 26 samples.

Results

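The comparison described here sets AEF378, a Caenorhabditis elegans strain whose extrachromosomal array drives flp-17 from the gcy-31 promoter, against the control strain AEF231, across all genes measured. Its members are libraries and were taken by strain label: 5 of AEF378 and 6 of AEF231, 11 of the 26 libraries of the series. AEF378 carries ashEx67, an array of gcy-31p::flp-17::GFP with the marker coel::RFP, and the reporter zcls4[hsp-4p::GFP]V. AEF231 carries the reporter alone. AEF373 (n = 5), which served as a second reference, has zcls4[hsp-4p::GFP]V and an array of flp-17 under its own promoter and 3′ untranslated region with an unc-122p::mCherry marker. AEF231 is the reporter strain SJ4005 outcrossed into N2, and AEF378 and AEF373 have its background. AEF373 was crossed there from a strain with a flp-17 null allele, which the cross removed. The other strains named below are AEF276, the reporter with the loss-of-function allele flp-17(n4894), and AEF149, with an array of flp-17p::flp-17::GFP and myo-3p:mCherry in the SJ4005 background. Every library came from 200 to 500 whole animals at day 1 of adulthood. Worms of AEF378 and AEF373 were sorted for the fluorescent marker 24 h before collection and replated, because not every animal inherits an array. Worms of AEF231 were washed and replated without sorting, so between AEF378 and AEF231 the array cannot be told apart from the sorting. The labels name no separate cultures behind the replicates. The p-values therefore reflect only library-to-library spread, which may be technical.

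FLP-17 is an FMRFamide-like neuropeptide made by the BAG sensory neurons, which respond to oxygen and carbon dioxide. It acts through the receptor EGL-6 and is known for slowing egg laying. gcy-31 encodes a soluble guanylate cyclase of the BAG neurons, so its promoter is used to drive genes there. hsp-4 encodes a BiP chaperone of the endoplasmic reticulum (ER), and its promoter reports the ER unfolded protein response.

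Total counts lay between 9659877 and 12417322 in the 11 libraries and up to 15528669 in the series. The count is of poly(A) RNA, and levels are given as CPM, counts of a library scaled to a common total with a correction for composition, which do not correct for gene length. 3 AEF378 and 4 AEF231 libraries were labelled batch 1 and 2 of each strain batch 2. Of 13315 genes tested, 1022 (7.68%) were higher and 788 (5.92%) lower in AEF378 than in AEF231 at an adjusted p below 0.05 by the quasi-likelihood test of edgeR (Benjamini-Hochberg). Together these were 13.6% of the genes. Upper-quartile scaling moved that split to 1179 higher and 484 lower. The rises were larger than the falls: 245 genes (1.84%) were at least 2-fold higher and 13 (0.0976%) at least 2-fold lower. All 5 AEF378 libraries lay above all 6 AEF231 libraries for 444 genes (3.33%) and below them for 386 (2.9%). Of the genes called higher, 1013 of 1022 had the same sign within each batch, and 784 of 788 of those called lower did. The genes were called on the libraries of both batches together, so these signs are no separate evidence. Within batch 1 642 genes (4.82%) and within batch 2 276 genes (2.07%) were called higher. No gene had a batch difference in the effect at an adjusted p below 0.05 in edgeR, against 665 at an unadjusted p below 0.05, and a filter at 2 CPM or a fit of the strains compared also gave 0. Without replicate 1 of AEF378 there were 2 such genes and without replicate 5 of AEF231 there was 1.

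**Figure D1:**
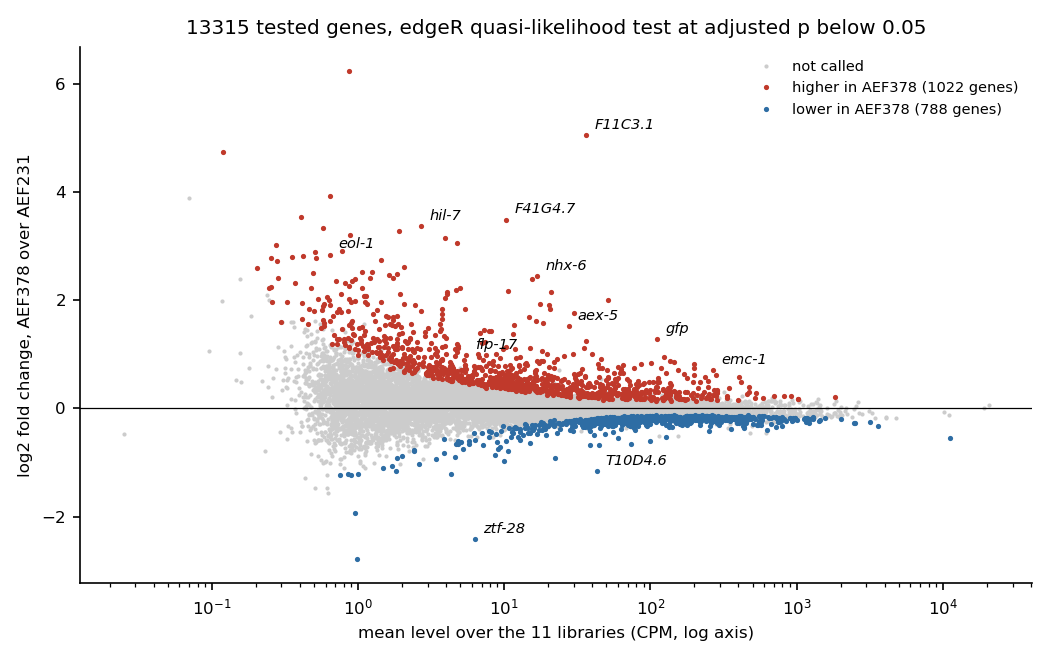
Each point is 1 of 13315 tested genes, with its mean CPM over the 11 libraries on a log axis and its log2 fold change of AEF378 over AEF231. Red points (1022) were called higher and blue points (788) lower; F11C3.1 at 5.06 and ztf-28 at -2.41 stand at the edges among genes of at least 2 CPM.

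flp-17 itself rose in AEF378 over AEF231, but to a small part of its level in AEF373, whose array has the flp-17 promoter. Its level was 7.56, 6.45, 7.11, 9.18 and 7.64 CPM in the 5 AEF378 libraries, against 2.18 at the lowest, 3.9 at the median and 5.56 at the highest in AEF231. The groups did not overlap. The log2 fold change was 0.99 ± 0.21 (SE; edgeR quasi-likelihood test with Benjamini-Hochberg adjustment, adjusted p = 0.00256). A two-sided exact permutation test of log2(CPM + 0.5) over 462 splits gave p = 0.00433 (n = 5 and 6). Against AEF373, at 301 ± 29.3 CPM (SD, n = 5), flp-17 was lower in AEF378 by 5.30 ± 0.14 log2 units. Array and chromosomal flp-17 transcripts share their sequence and are not separated by the counts, and in RNA of whole animals fewer expressing cells cannot be told from less RNA per cell.

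Transcripts of gfp, gcy-31 and hsp-4, of which only gfp is named as transcribed from the array, gave uneven signals. The sequence named gfp in the table had 164, 160, 156, 196 and 140 CPM in AEF378, against 54.9, 68.5 and 80.7 CPM at the lowest, median and highest AEF231 library. Both the fusion and the hsp-4 reporter carry GFP, and the table does not separate them. AEF373, whose array is described without GFP, averaged 129 CPM. The log2 fold change of gfp in AEF378 was 1.29 over AEF231 and 0.35 over AEF373. The source of the rise was not tested. gcy-31 had 1.7, 0.379, 1.42, 0.91 and 1.55 CPM in AEF378 and 0.182 to 0.843 CPM in AEF231, with overlapping groups. Its difference of 1.29 ± 0.45 log2 units passed the test at an adjusted p of 0.0459 in edgeR with Benjamini-Hochberg adjustment. That call was lost when any of 9 of the 11 libraries was left out, at adjusted p up to 0.141. Of the 8 tested genes of the BAG list 3 were called higher (against 7.68% of all genes), and 1 without replicate 1 of AEF378. In the libraries of batch 1 alone flp-17 was the 1 called. Endogenous hsp-4 averaged 504 ± 21.6 CPM in AEF378 and 467 ± 36.4 CPM in AEF231 and was not called (adjusted p = 0.224 in edgeR).

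EGL-6 and the enzymes that cut and finish neuropeptides formed a list of 10 tested genes, of which 5 were higher (against 7.68% of all genes) and none lower. The largest difference among them was that of aex-5, given with its neighbours on chromosome I. egl-3, the proprotein convertase of most neuropeptides, had 59.4, 54.6, 70.4, 63.1 and 53 CPM in AEF378, against 41.5, 47.7 and 52.4 CPM at the lowest, median and highest AEF231 library. The groups did not overlap, and the log2 fold change was 0.36 ± 0.07. egl-21, the carboxypeptidase that acts next, differed by 0.27 ± 0.08. egl-6 had 6.57 CPM in AEF378 and 5.85 CPM in AEF231, a difference of 0.15 ± 0.16 that did not pass (adjusted p = 0.58 in edgeR with Benjamini-Hochberg adjustment). Among 29 other flp genes 2 (6.9%) were higher, a share near the 7.68% of all genes. They include flp-6, at 24.3 ± 3.46 CPM in AEF378 and 16.9 ± 2.6 CPM in AEF231. Against AEF373 none of the 10 genes of the receptor and processing list was higher and 2 were lower (against 3.68% and 5.92% of all genes). Without replicate 4 of AEF378 the 5 calls against AEF231 became 3.

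Among called genes whose average over the 11 libraries reached 2 CPM, the largest change was that of F11C3.1 (WBGene00008695), on the plus strand of chromosome I at 14867924 to 14871365 (WBcel235). It had 75.2, 78.5, 69.8, 81.2 and 81.6 CPM in AEF378, against 1.71, 2.4 and 2.78 CPM at the lowest, median and highest AEF231 library. The groups stood far apart, with a log2 fold change of 5.06 ± 0.11 and an adjusted p of 1.05e-34 in edgeR. AEF373 had 82.6 CPM, and AEF378 did not differ from it by the test (-0.10 ± 0.07, adjusted p = 0.476). The array strain AEF149 had 3.34 CPM and the flp-17 mutant AEF276, which has no array, 2.91 CPM. F11C3.1 ends 746 bases before unc-122 (14872112 to 14875436, plus strand), the gene whose promoter drives the marker of AEF373. The labels of AEF378 do not name the promoter of coel::RFP. unc-122 itself averaged 2.73 ± 0.485 CPM in AEF378 and 2.17 ± 0.499 CPM in AEF231 and was not called.

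A gene nearby stood out as well. aex-5, a proprotein convertase of the intestine at 14850052 to 14855827 on the minus strand, had 45.8, 39.2, 46.1, 41 and 43.9 CPM in AEF378 and 12 to 18 CPM in AEF231. Its log2 fold change was 1.52 ± 0.08, and its level in AEF373 was 48.7 CPM. In AEF149, where F11C3.1 was low, aex-5 averaged 28.4 CPM, and in AEF276 14.7 CPM. aex-5 lies beside the myosin gene unc-54 (14855901 to 14863482), which differed by 0.21 ± 0.07. str-245, a receptor gene that overlaps aex-5 on the other strand, differed by 0.17 ± 0.16 and was not called. Whether reads from the array are counted in F11C3.1 or aex-5 was not tested.

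**Figure D2:**
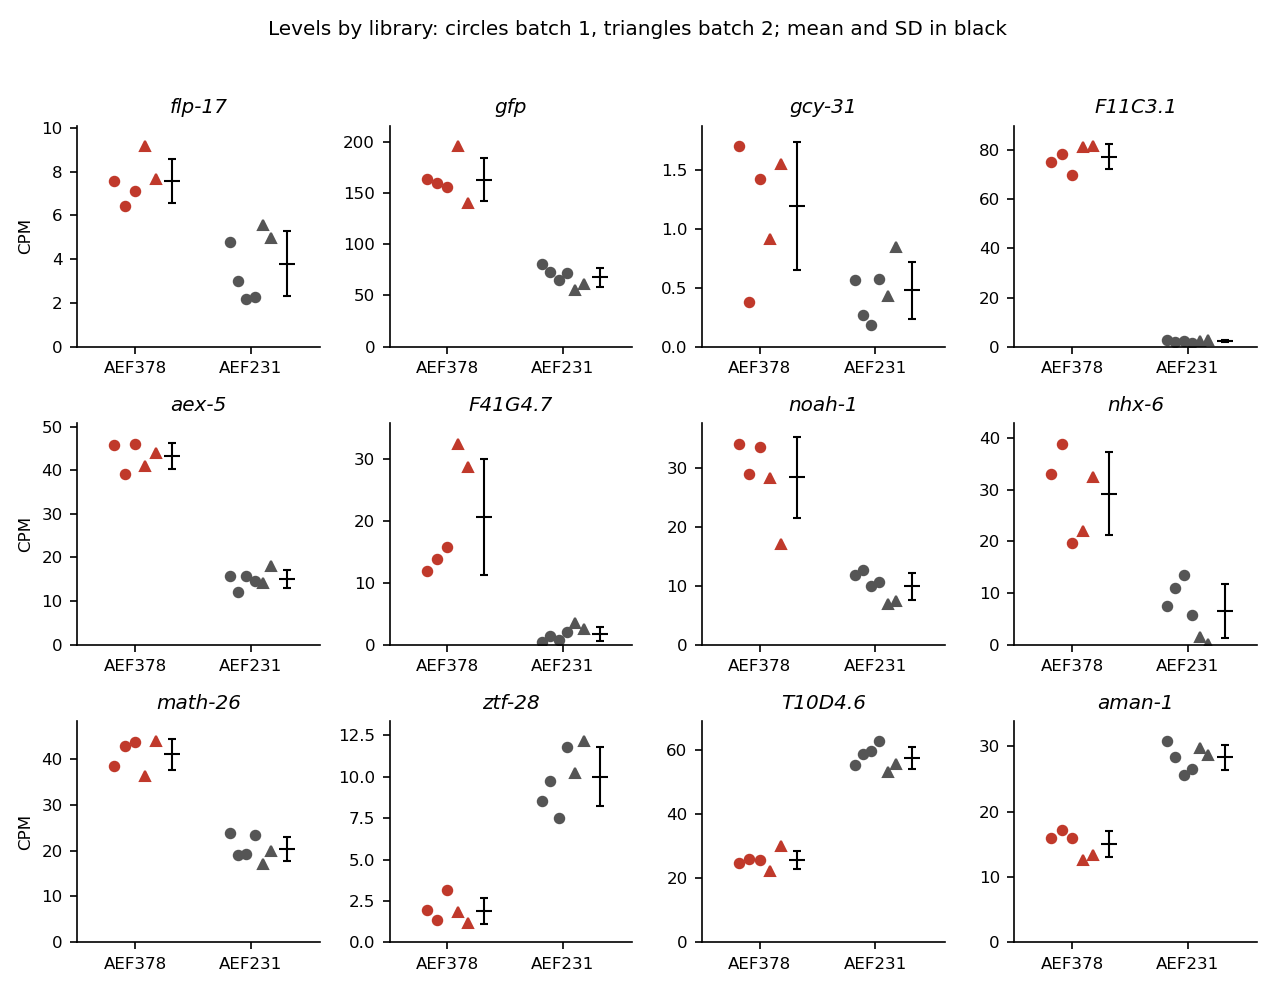
CPM in each library (vertical axes, from 0) of 12 genes in AEF378, left in red, and AEF231, right in grey; circles are batch 1 and triangles batch 2, and black marks are mean and SD (n = 5 and 6). The groups do not overlap in any gene shown but gcy-31.

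A stretch of chromosome II set AEF378 apart from both AEF231 and AEF373. Among tested genes in map order, the longest run with a log2 fold change above 0 in both comparisons held 50 genes, from rog-1 to math-4, at 1368102 to 1782574 (414.5 kb, WBcel235). The next longest such run held 7 genes, and the longest run below 0 in both held 6. The run was found by looking at the values, so its counts describe it and no test was made of it. Both comparisons use the same AEF378 libraries. Of the 50 genes, 33 were called higher than in AEF231, none lower, and 29 were called higher than in AEF373. The median log2 fold change was 0.71 against AEF231 and 0.81 against AEF373. Of the 17 genes with at least 5 CPM in AEF231, 16 were higher than in AEF231 and 17 than in AEF373.

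The shift was alike in each library of AEF378. Summed over the 50 genes, the level was 1216, 1201, 1249, 1184 and 1208 CPM in AEF378. It was 709.5 CPM at the lowest, 742 at the median and 780.8 at the highest library of AEF231. In AEF373 it lay between 665.5 and 745 CPM, in AEF276 between 761.5 and 897.9 CPM and in AEF149 between 688.9 and 730 CPM. The AEF378 libraries thus lay above all 21 others of the series, at a ratio of means of 1.63 over AEF231 and 1.72 over AEF373. The genes were chosen for being higher than in AEF231 and AEF373, so both ratios and the separation from those strains reflect that choice. AEF276 and AEF149 were not compared in choosing the run, though the AEF378 libraries were the same. Medians within batches were 0.96 in batch 1 and 0.75 in batch 2, with 49 of 50 genes above 0 in each. The batches hold the same libraries by which the run was chosen, so these signs are no separate evidence. With each library left out in turn 28 to 32 genes of the run, as chosen with all libraries, were called higher than in AEF231.

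**Figure D3:**
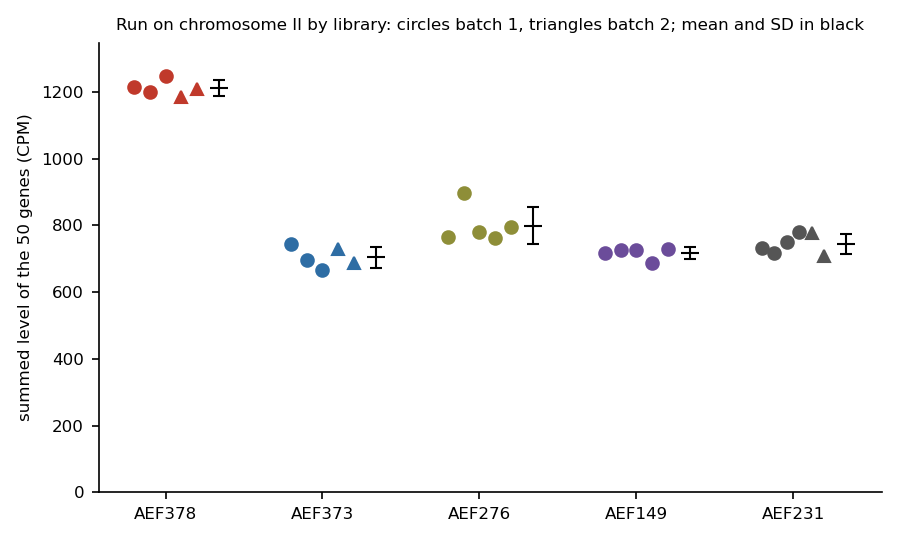
Summed CPM of the 50 genes of the chromosome II run in each of the 26 libraries by strain (vertical axis from 0; circles batch 1, triangles batch 2; black marks are mean and SD). The 5 AEF378 libraries sit between 1184 and 1249 CPM and the other 21 between 665.5 and 897.9 CPM. The genes were chosen for being higher in AEF378 than in AEF231 and AEF373.

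The run holds genes of unlike functions. emc-1, a subunit of the ER membrane protein complex, had 325, 340, 348, 330 and 347 CPM in AEF378, against 188, 203 and 226 CPM at the lowest, median and highest AEF231 library. The groups did not overlap, and the log2 fold change was 0.71 ± 0.06 (0.78 ± 0.06 against AEF373). cogc-4, a subunit of the Golgi tethering complex COG, was 0.57 ± 0.06 higher than in AEF231 and also 0.57 ± 0.06 higher than in AEF373. rog-1, at the left end of the run, had 158 CPM in AEF378 and 101 CPM in AEF231. alkb-1, a homologue of a nucleic acid demethylase, had 62.6 CPM in AEF378 and 42.4 CPM in AEF231. nhx-6, a sodium-proton exchanger gene, had 33.1, 38.9, 19.7, 21.9 and 32.5 CPM in AEF378, against 0.0843, 6.62 and 13.5 CPM at the lowest, median and highest AEF231 library. Its log2 fold change was 1.696 within batch 1 and 5.12 within batch 2, and AEF276 averaged 19.2 CPM.

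F-box, MATH and BTB genes, families of substrate adaptors for ubiquitin ligases, make up 28 of the 50 genes, and 13 of those were called higher. Among the 22 other genes 20 were called. math-26 had 38.4, 42.8, 43.6, 36.3 and 43.8 CPM in AEF378, against 17, 19.5 and 23.7 CPM at the lowest, median and highest AEF231 library, a log2 fold change of 1.02 ± 0.08. Of the MATH and BTB list, 10 of the 12 tested members in the run were higher in AEF378, against 3 of the 52 outside it. Their medians were 1.01 inside and -0.00363 outside. Genes inside the run were above 0 by the way it was chosen, so this contrast is a description and no test of position. The fbxa genes lay nearly all elsewhere: 10 of 86 outside the run were higher (against 7.68% of all genes). Among them was fbxa-188, at 4.57 CPM in AEF378 and 1.98 CPM in AEF231.

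The left edge of the run was sharper than the right against AEF231, where genes beyond math-4 were also above 0. Of the 10 tested genes before rog-1, 1 was called higher than in AEF231, with a median of -0.01. Of the 10 after math-4, 4 were called higher than in AEF231, with a median of 0.84, and 2 were higher than in AEF373, with a median of 0.25. The glucose transporter gene fgt-1, which the annotation used here does not place, had 168 CPM in AEF378, 86.1 CPM in AEF231 and 94 CPM in AEF373.

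**Figure D4:**
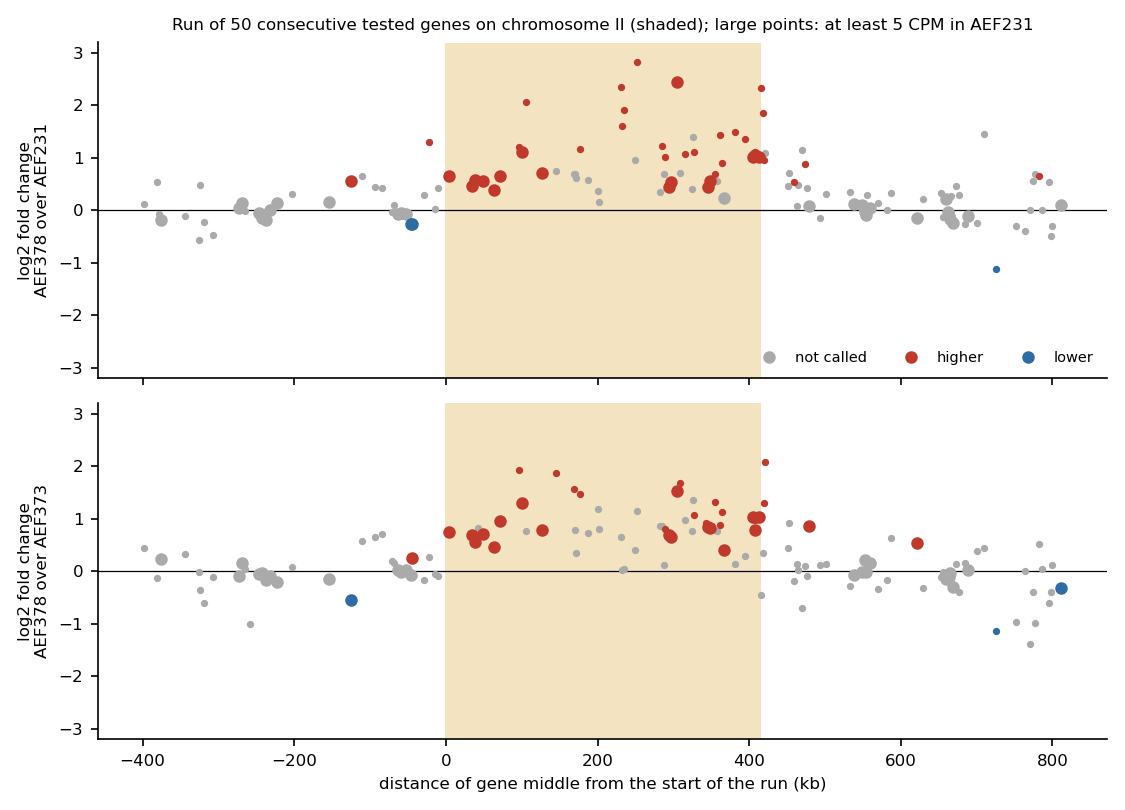
Log2 fold change of AEF378 over AEF231 (top) and over AEF373 (bottom) for tested genes by distance from the start of the chromosome II run, shaded; large points have at least 5 CPM in AEF231. Inside the shading the points lie above 0 in both panels because the run was chosen that way. Their medians are 0.71 and 0.81, and the 10 genes right of the shading have medians of 0.84 and 0.25.

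Over the whole table, 88 of 13315 tested genes were higher in AEF378 than in both AEF231 and AEF373. Of these, 24 lie in that run and 28 on the X chromosome, and 19 of those on X start beyond 14 Mb. The X chromosome held 1894 of the 12766 tested genes with a position. Successive windows of equal width on X, from 14 Mb to its end, held 57, 69, 44, 45, 42, 48, 49 and 16 tested genes. F41G4.7 (X, 16834896 to 16836404) had 11.91, 13.9, 15.8, 32.5 and 28.8 CPM in AEF378, against 0.377, 1.66 and 3.47 CPM at the lowest, median and highest AEF231 library. The groups did not overlap, and the log2 fold changes were 3.50 ± 0.22 against AEF231 and 1.37 ± 0.19 against AEF373. Its neighbour F41G4.13 differed by 3.16 ± 0.27 and 1.84 ± 0.25. T20F7.1, some way further along, had 151 CPM in AEF378, 89.5 CPM in AEF231 and 68.6 CPM in AEF373. Of the 4 tested genes between F41G4.7 and T20F7.1, aakg-2, a subunit of AMP-activated kinase, was higher by 0.51 ± 0.09, and dyla-1, F41G4.8 and T20F7.3 were not called.

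Other genes higher than in both strains lay elsewhere on X or on other chromosomes. gas-1, a subunit of mitochondrial complex I, had 183, 226, 195, 222 and 229 CPM in AEF378, against 117, 132 and 161 CPM at the lowest, median and highest AEF231 library, and averaged 113 CPM in AEF373. usp-33, next to gas-1 on X, had 61.8 CPM in AEF378, 32.5 CPM in AEF231 and 26.4 CPM in AEF373. maco-1, a neuronal membrane protein gene on chromosome I, had 331 to 361 CPM in AEF378 and 206 to 242 CPM in AEF231, a difference of 0.62 ± 0.04 (0.77 ± 0.05 against AEF373). C07G1.7 on chromosome IV had 18.2 CPM in AEF378, 6.13 CPM in AEF231 and 5.4 CPM in AEF373. Among all genes tested on X, 11.5% were higher in AEF378 than in AEF231 and 2.01% lower, against 7.68% and 5.92% of all genes. The shares were 4.22% and 9.1% on chromosome I, and 9.22% and 3.98% on chromosome V. The count higher than in AEF231 on X was 218, and 147 without replicate 4 of AEF378. Against AEF373 the order was reversed, with 96 genes on X higher, 154 lower and a median of -0.02.

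37 genes were lower in AEF378 than in both strains, and the largest fall against AEF231 among those averaging 2 CPM or more was that of ztf-28, a zinc finger gene on chromosome V (2090669 to 2091740). It had 1.99, 1.33, 3.15, 1.82 and 1.18 CPM in AEF378, against 7.54, 9.99 and 12.1 CPM at the lowest, median and highest AEF231 library. The groups did not overlap, and the log2 fold change was -2.41 ± 0.17 (edgeR with Benjamini-Hochberg adjustment, adjusted p = 2.59e-14). T10D4.6 (chromosome II, 3119332 to 3123183) had 24.8, 26, 25.7, 22.3 and 30 CPM in AEF378, against 53.3, 57.2 and 62.7 CPM at the lowest, median and highest AEF231 library. Its level was 51.5 CPM in AEF373 but 25.4 CPM in AEF276 and 25.1 CPM in AEF149, so the low level was shared with strains other than AEF378. aman-1, a lysosomal alpha-mannosidase gene on X, had 16, 17.2, 16, 12.58 and 13.4 CPM in AEF378, against 25.6, 28.6 and 30.8 CPM at the lowest, median and highest AEF231 library. C04G6.6 on chromosome II was lower by 0.97 ± 0.13 log2 units. F09E10.1 was 2.56 CPM in AEF378 and 5.77 CPM in AEF231, but 2.53 CPM in AEF373.

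A share of the moulting genes was higher in AEF378 than in AEF231 and lower than in AEF373. Of 31 tested moulting genes 14 (against 7.68% of all genes) were higher than in AEF231. Of the same 31 genes 18 were lower than in AEF373 (against 5.92% of all genes), with 11 called in both. The AEF373 libraries were not alike between batches, and its averages here and below cover both. On the second principal component of all libraries (19.8% of variance) those of batch 1 lay at 40.6, 50 and 44.8. Those of batch 2 lay at 3.68 and 8.99. noah-1, a zona pellucida protein of the apical matrix, had 34.1, 29, 33.5, 28.3 and 17 CPM in AEF378, against 6.94, 10.2 and 12.73 CPM at the lowest, median and highest AEF231 library, and 63.7 CPM in AEF373. Its log2 fold changes were 1.58 ± 0.12 and -1.13 ± 0.11. fbn-1, a fibrillin-like matrix gene, differed by 1.38 ± 0.17 and -0.63 ± 0.16. sym-1, a leucine-rich repeat protein gene, and noah-2, a relative of noah-1, were higher by 1.11 ± 0.11 and 1.697 ± 0.16 than in AEF231, with overlapping libraries for sym-1.

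The collagens of the annular furrows, which set cuticle ridges, showed the same order of strains. Of 6 tested furrow collagen genes the same 4 were higher than in AEF231 and lower than in AEF373, with medians of 1.15 and -1.53. dpy-7 had 4.92, 3.42, 4.27, 3.39 and 0.546 CPM in AEF378, against 0.337, 0.746 and 1.59 CPM at the lowest, median and highest AEF231 library, so that the fifth library of AEF378 lay among those of AEF231. dpy-14 and dpy-17, collagen genes of the embryo and larva, averaged 27.7 and 29.4 CPM in AEF378 and 5.3 and 7.88 CPM in AEF231. They reached 102 and 118 CPM in AEF373, and the AEF378 and AEF231 libraries overlapped for dpy-17. The body shape and blister collagens as a list did not show that order. Of 14 tested, 3 (21.4%, against 7.68% of all genes) were higher than in AEF231 and lower than in AEF373. Only 7 of the 14 were above 0 against AEF231, with a median of -0.02. Against AEF373 the median was 1.33, and 2 genes were called higher. The col genes as a family did not follow: 3 of 98 were higher and 1 lower than in AEF231 (against 7.68% and 5.92% of all genes). The higher count lay between 2 and 8 with single libraries left out. Among the 12 largest rises over AEF231 that averaged 2 CPM or more and did not overlap, the 2 AEF378 libraries of batch 2 held the lowest AEF378 levels of 7: hil-7, R09E10.5, dpy-14, F33H12.7, Y37H2A.14, clec-78 and hch-1. hch-1, the hatching protease, had 8.7, 8.54, 10.2, 4.72 and 3 CPM in AEF378 and 0.422 to 2.65 CPM in AEF231. Of 14 tested embryo genes, hch-1 alone was higher (7.14%, near the 7.68% of all genes) and 2 were lower (14.3%, against 5.92%). The 14 had a median of -0.41, and the listed embryo genes summed to 47.2 to 77.5 CPM in AEF378 and 67 to 82.8 CPM in AEF231; their part in the result was not tested.

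Defence genes rose in part. The share of all tested genes called was 7.68% higher and 5.92% lower. Of 15 tested genes of the intracellular pathogen response 7 (46.7%) were higher and none lower than in AEF231, with a median of 0.61. skr-5, a Skp1-like ubiquitin ligase subunit, had 4.82, 4.55, 5.08, 3.14 and 3.64 CPM in AEF378, against 1.04, 1.45 and 2.73 CPM at the lowest, median and highest AEF231 library. cul-6, the cullin of the same ligase, differed by 0.71 ± 0.17 and eol-1, an RNA decapping gene, by 2.85 ± 0.53 at 1.22 CPM in AEF378. No gene of that list was higher than in AEF373. Of 20 tested PMK-1 immunity genes 6 (30%) were higher, but 2 without the batch term, and the groups overlapped for lys-2, a lysozyme gene, at 69 to 117 CPM in AEF378 and 39.8 to 75.1 CPM in AEF231. C-type lectins gave 15 higher (17.2%) and 2 lower (2.3%) of 87, and 8 higher in batch 1 alone. None of 13 epidermal antimicrobial peptide genes was called.

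Among 34 tested ER genes 9 (26.5%, against 7.68% of all genes) were higher and none (against 5.92%) lower, at small differences. pdi-6, a protein disulfide isomerase gene, had 332, 310, 325, 321 and 321 CPM in AEF378, against 232, 247 and 283 CPM at the lowest, median and highest AEF231 library, with no overlap. Its log2 fold change was 0.34 ± 0.06 (edgeR with Benjamini-Hochberg adjustment, adjusted p = 3.67e-05). xbp-1, the transcription factor of the response, differed by 0.25 ± 0.05, with overlapping groups, and hsp-3, a BiP gene like hsp-4, by 0.24 ± 0.07. The median of the list was 0.02, and 3 genes were called in batch 1 alone.

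Of 42 tested genes of fatty acid desaturation, oxidation and lipolysis 10 (23.8%, against 7.68% of all genes) were higher. In the same list 3 (7.14%) were lower, near the 5.92% of all genes. fat-7, a stearoyl-CoA desaturase, had 241, 220, 219, 252 and 295 CPM in AEF378, against 142, 151 and 186 CPM at the lowest, median and highest AEF231 library. fat-6, its close homologue with which reads may be shared, averaged 364 CPM in AEF378 and 310 CPM in AEF231. The log2 fold changes were 0.63 ± 0.08 and 0.23 ± 0.05. The beta-oxidation thiolase daf-22 was lower by 0.23 ± 0.06 than in AEF231, but its call was lost in batch 1 alone. In the intestine list 6 of 30 genes (20%) were higher and 2 (6.67%) lower, the second share near that of all genes, with 10 higher under upper-quartile scaling. ifo-1, an organiser of the intestinal filament layer, had 43.4 ± 2.91 CPM in AEF378 and 32.9 ± 2.95 CPM in AEF231. The list of yolk proteins and their receptor gave 2 lower of 7 (28.6%), vit-1 and vit-3, and both calls were lost in batch 1 alone.

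Part of the genes of protein synthesis were lower, by small amounts. Of 31 tested translation factors 15 were lower (against 5.92% of all genes) and 1 higher, with a median of -0.17. eif-3.L, a subunit of initiation factor eIF3, had 178, 204, 181.7, 197 and 208 CPM in AEF378, against 216, 239 and 256 CPM at the lowest, median and highest AEF231 library. The groups did not overlap, and the log2 fold change was -0.30 ± 0.05. Of 80 ribosomal protein genes 24 were lower and none higher. That count was 13 under upper-quartile scaling and without replicate 2 of AEF378, 42 with no filter on low counts and 15 in batch 1 alone. Of 33 proteasome genes 12 were lower, but 4 in batch 1 alone.

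Oogenic and eggshell genes gave 15 lower of 57 (26.3%, against 5.92% of all genes), with a median of -0.13. pgl-1, a P granule protein gene, averaged 453 ± 22.1 CPM in AEF378 and 550 ± 41.6 CPM in AEF231 (SD, n = 5 and 6), a log2 fold change of -0.28 ± 0.05. The count was 8 without replicate 4 of AEF378 or in batch 1 alone, and 9 under upper-quartile scaling. Their summed level was 30773 to 32687 CPM in AEF378 and 32780 to 36222 CPM in AEF231. None of 61 sperm genes was called (against 13.6% of all genes). Against AEF373, 3 of the 61 sperm genes were higher, and 1 of 80 ribosomal genes was higher with none lower. In the same comparison 1 of 57 oogenic genes was lower. The shares of all genes there were 3.68% higher and 5.92% lower.

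Markers of other tissues were counted against the same 7.68% of all genes called higher. Coelomocyte genes gave 1 higher of 10, and summed to 869.5 to 935.5 CPM in AEF378 and 847 to 934.2 CPM in AEF231. Body wall muscle markers gave 6 higher of 33, though 3 in batch 1 alone, and pan-neuronal markers 5 of 34, which include egl-3, egl-21 and maco-1. Pan-neuronal markers summed to 3141 to 3245 CPM in AEF378 and 2870 to 3318 CPM in AEF231. Pharynx markers gave 4 higher of 17, with a median of 0.32. They summed to 430.4 to 509.3 CPM in AEF378 and 346.3 to 444.7 CPM in AEF231. The part of these markers in the results above was not tested.

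**Figure D5:**
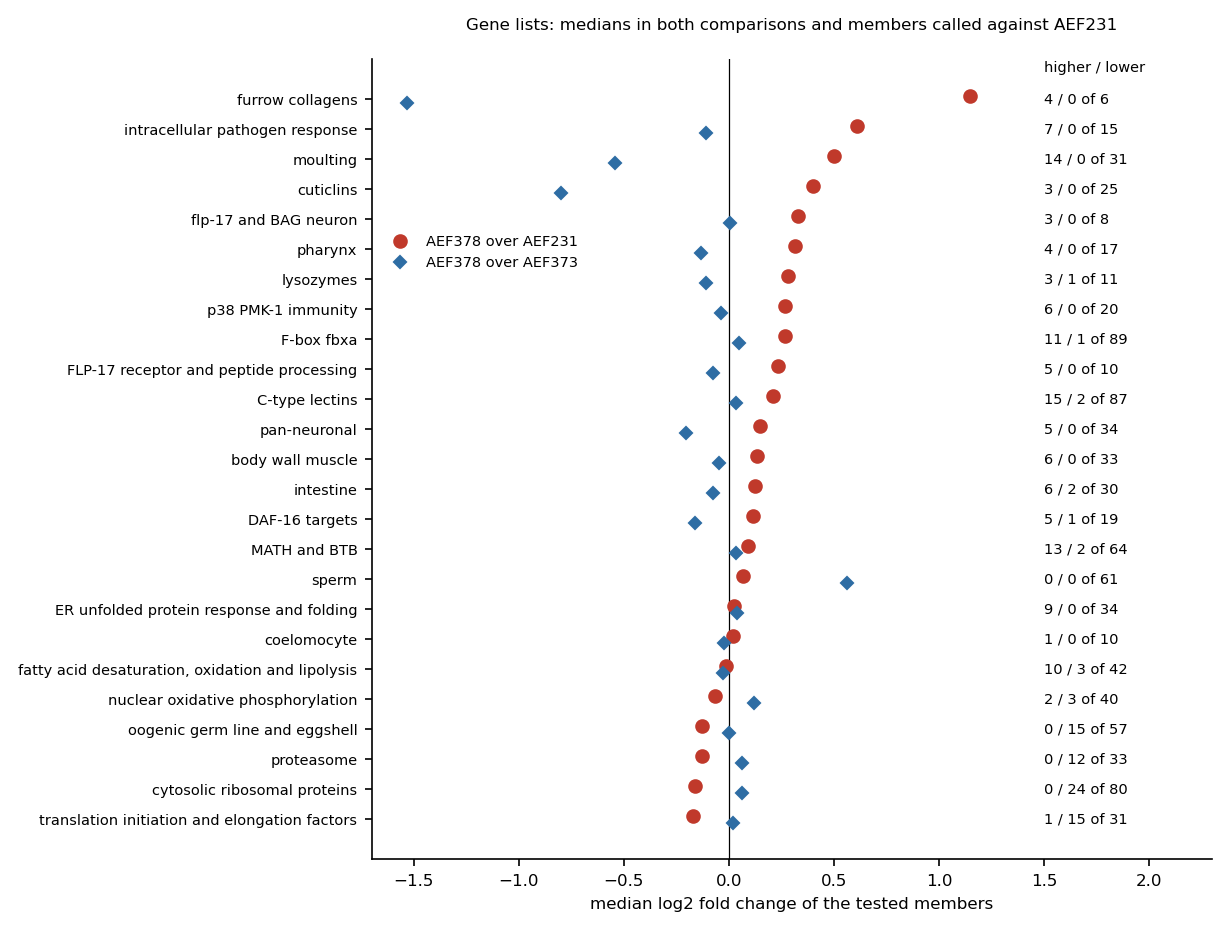
Median log2 fold change of the tested members of 25 gene lists for AEF378 over AEF231 (red circles) and over AEF373 (blue diamonds), with members called higher and lower than AEF231 on the right. Furrow collagens (1.15 and -1.53) and moulting genes (0.50 and -0.54) lie on opposite sides of 0 in the 2 comparisons.

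Against AEF373, which shares sorting and the reporter background with AEF378, 490 genes (3.68%) were higher and 788 (5.92%) lower in AEF378 (9.6% in all), 53 and 267 of them by at least 2-fold. Besides flp-17, the largest falls under the limits of 2 CPM and no overlap were the collagen gene col-165, the cuticlin genes cut-3 and cut-2, and grl-7, ZC123.1, R02F11.1 and F33D4.6. col-165 averaged 0.722 ± 1.27 CPM in AEF378 and 28 CPM in AEF373, a log2 fold change of -5.37 ± 0.74. cut-3 averaged 0.586 ± 0.829 CPM in AEF378 and 23.6 CPM in AEF373. Neither gene was called against AEF231, where they averaged 0.273 and 0.473 CPM. Among called genes that averaged 2 CPM or more over the 10 libraries and did not overlap, the largest rises over AEF373 were Y47G6A.15, Y51H7C.13, F41G4.13, C07G1.7, col-71, nhx-6, F41G4.7 and btb-8. Of these Y51H7C.13, nhx-6 and btb-8 lie in the chromosome II run. The call of nhx-6 against AEF373 was lost with any of 5 libraries left out.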

How the data were processed

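The deposited table holds raw counts of reads for each gene in each library, with STAR 2.7.11b and the build ce11 listed in the submitters' processing notes. How reads were assigned to genes, with which annotation and whether by strand, is not stated in the sources used here, and genes that overlap may share reads. Positions are from the Ensembl annotation of WBcel235, the assembly of ce11, which matched 40181 of 42533 symbols; the rest held 3.6% of counts. Every column was mapped to a library by its label.

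Counts were used as deposited, filtered with filterByExpr by strain (13315 genes left) and scaled by TMM. edgeR 4.0.16 (R 4.3.3) was fitted with robust quasi-likelihood to the 26 libraries of the series, by strain and batch, and p was adjusted by Benjamini-Hochberg over all genes tested, at 0.05. The biological coefficient of variation was 8.01%. Replicates of a strain differed by more than sampling noise in every pair. Total counts set the precision, and counting error alone would understate it.

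Members and gene lists were chosen with earlier results of these data known. Genes named are flp-17, gcy-31, unc-122, gfp and hsp-4, the 12 largest called rises and falls whose mean reaches 2 CPM and whose libraries do not overlap, up to 4 genes of each list, and the 8 largest differences each way from AEF373. Other genes, the chromosome II run and the X chromosome counts were chosen after their values were seen. The fit was repeated with DESeq2 1.42.0, its size factors and upper-quartile scaling, with looser and stricter filters and thresholds, without robust weights or the batch term, in batch 1 alone, with blocks, with the compared strains alone, and leaving out each library. On simulated counts of this comparison (13315 genes, 100 changed by 0.5 and 100 by 1 log2 unit) 59% and 92% of the changes were called, with 10 false calls among 13115 genes.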

Additional observations from a re-analysis of the deposited data

Results flagged for a closer look

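In 3 groups of libraries, 1 library stood far from the others of its strain, while chance alone, at about 1 in 20 groups, would give 5.6 over all groups checked. unc-54 was 2181 CPM in replicate 5 of AEF231, against 1689 CPM in the next library. skr-4 was 31.8 CPM in replicate 1 of AEF378, against 24.3 CPM in the next. cogc-4, in the chromosome II run, was 159 CPM in replicate 3 of AEF378, against 133 CPM in the next, and all 5 libraries lay above the highest AEF231 library at 98.9 CPM. No gene's effect differed between batches at an adjusted p below 0.05.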

How the results depend on the processing

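Counts of genes higher and lower than in AEF231 (1022 and 788) were 597 and 427 in batch 1 alone, 560 and 311 at an adjusted p below 0.01, and 245 and 13 at 2-fold or more; the lower count was 484 under upper-quartile scaling. The batch 1 fit holds fewer libraries. With each library left out in turn they lay between 743 and 960 and between 533 and 822. Against AEF373 (490 and 788) they were 228 and 472 at an adjusted p below 0.01, 53 and 267 at 2-fold or more, and 326 to 453 and 659 to 856 with each library left out; the lowest higher count was without replicate 1 of AEF373. Genes with a batch difference were 0 to 2 with single libraries left out. Under other size factors, DESeq2, other filters, no batch term, only the strains compared and no robust weights the counts stayed within 1.5 times, apart from the lower count named. flp-17 kept its direction and its permutation call in each alternative run, at 0.859 to 1.09 log2 units with each library left out.

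Same-numbered libraries of AEF378 and AEF231 had deviations from their strain means that correlated at -0.148 to 0.193, so the numbers were not taken to pair them. With the replicate number as a block the counts were 789 higher and 530 lower, and with the labels' group number 831 and 555. Over the named genes 4032 values under alternatives kept their call and direction, 282 lost the call, 7 gained one and 0 reversed. Genes under about 1 CPM rest on few reads, so that differences there were not detectable unless large.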
